A study of Psammomys obesus with 8 samples.

Results

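Voltage-gated calcium and sodium channels are described here by the methylated DNA captured over their genes in the hypothalamus of the fat sand rat, Psammomys obesus, a desert rodent that readily becomes obese and diabetic on energy-rich food. The members are the captured DNA contigs that the deposited count table places inside (at a distance of 0 from) a mouse gene whose symbol belongs to the calcium channel families Cacna1, Cacna2d, Cacnb and Cacng or to the sodium channel alpha and beta subunits. This rule, which uses names and no measured value, found 813 contigs in 35 genes, out of 548060 contigs in the table and 125082 contigs inside 19098 genes. The families hold 39 mouse symbols, and Cacng6, Cacng7, Cacng8 and Scn2b had no contig inside or beside them. The brain sodium channel alpha gene Scn2a is listed under the symbol Scn2a1, which the rule does not take. Its 21 contigs held 33.0 ± 1.22 (SD, n = 4) CPM (the count scaled to the library's total) in low-low and 33.2 ± 3.85 (SD, n = 4) CPM in standard-low libraries, a difference of 0.01 ± 0.08 (SE) on the log2 scale.

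Each of the 8 libraries was made from hypothalamic genomic DNA of a male aged 16 weeks, by MethylMiner enrichment and sequencing. MethylMiner pulls down DNA with the methyl-CpG binding domain of the protein MBD2, so the number of reads over a stretch rises with its methylated CpGs. The 4 low-low libraries carry the diet label low lipid and the 4 standard-low libraries the diet label standard lipid. The series concerns offspring of fathers, or parents, kept on different diets, and the labels do not say which word of a group name stands for which generation, nor whether each library came from a different animal or litter. The p-values below therefore measure the spread between these libraries, which may in part be technical. Whole hypothalamus mixes neurons, glia and vessels, and captured DNA holds every gene whatever the cell, so marker genes cannot check the tissue here, and a change in methylation cannot be told apart from a change in the mix of cells.

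These channels open when the membrane voltage rises. Sodium channels carry the fast inward current that starts and propagates the action potential, and calcium channels turn the voltage change into calcium entry that drives transmitter and hormone release, pacemaking and gene expression. In both families a large alpha subunit forms the pore and sets the voltage sensitivity, and smaller subunits govern its transport to the membrane and its gating. In the hypothalamus they shape the firing of the neurons that control feeding, fluid balance and pituitary hormones. Methylation of CpGs inside gene bodies is common in active and silent genes alike, and the level of capture over a gene says nothing by itself about its expression.

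The contigs are sand rat DNA, and most are short. Their lengths ran from 101 to 3277 bases, and together they covered 468 kb. The sequences shown are those of 3 calcium channel contigs among the 7 contigs with the lowest unadjusted p-values in the comparison of the groups, and of the contig with the most CpGs per length, each as the stretch of up to 300 bases with the most CpGs. Capitals mark the CpG dinucleotides, the sites at which the capture protein can bind when methylated.
Cacna1h contig 1360805, bases 1 to 287: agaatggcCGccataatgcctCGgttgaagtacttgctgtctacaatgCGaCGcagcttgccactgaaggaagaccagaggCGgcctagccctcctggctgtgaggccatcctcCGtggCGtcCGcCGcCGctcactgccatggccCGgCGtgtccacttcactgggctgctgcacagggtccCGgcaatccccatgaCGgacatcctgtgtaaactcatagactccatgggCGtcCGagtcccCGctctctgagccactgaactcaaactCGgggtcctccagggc
Cacna1i contig 869600, bases 36 to 335: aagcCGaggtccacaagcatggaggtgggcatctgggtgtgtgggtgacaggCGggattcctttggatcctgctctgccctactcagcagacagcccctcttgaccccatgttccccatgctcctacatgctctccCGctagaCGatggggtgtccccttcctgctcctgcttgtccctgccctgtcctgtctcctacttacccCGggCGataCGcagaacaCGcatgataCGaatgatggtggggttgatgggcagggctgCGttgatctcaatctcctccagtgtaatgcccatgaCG
Cacnb4 contig 2904554, bases 32 to 331: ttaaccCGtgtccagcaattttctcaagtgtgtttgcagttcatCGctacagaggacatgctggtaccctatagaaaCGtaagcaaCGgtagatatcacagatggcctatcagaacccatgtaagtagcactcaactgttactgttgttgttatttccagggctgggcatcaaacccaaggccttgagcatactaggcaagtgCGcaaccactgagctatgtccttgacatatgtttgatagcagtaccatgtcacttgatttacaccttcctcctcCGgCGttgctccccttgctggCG
Cacna1b contig 1270938, bases 9 to 308: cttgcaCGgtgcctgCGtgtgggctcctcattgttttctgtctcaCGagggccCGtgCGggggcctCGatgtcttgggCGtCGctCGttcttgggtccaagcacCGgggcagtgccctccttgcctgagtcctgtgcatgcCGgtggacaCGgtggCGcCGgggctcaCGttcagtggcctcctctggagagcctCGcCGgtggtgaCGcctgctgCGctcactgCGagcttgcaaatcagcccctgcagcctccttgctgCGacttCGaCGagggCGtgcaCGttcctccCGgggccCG

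The Cacna1h contig, with 18 CpGs in its 287 bases, and the Cacna1b stretch, with 27 in 300, are rich in these sites, and the stretches from Cacna1i, with 11, and Cacnb4, with 8, are poorer. The deposited table places these contigs by their best match to mouse, in a build that the sources used here do not give, and whether a contig lies in an exon or an intron was therefore not assigned. The Cacna1h contig matches chr17:25391132-25391415 and the Cacna1b contig chr2:24678971-24679291, both on the plus strand. The Cacna1i contig matches chr15:80381049-80381293 and the Cacnb4 contig chr2:52628692-52628745, both on the minus strand. The Cacnb4 match rests on 54 of the contig's 398 bases. Of the 813 contigs, 128 matched mouse over fewer than 100 bases. Channel genes are alike in their coding parts, so a contig with a short match may belong to a related gene.

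Each contig drew few reads. The mean count per library ran from 10.1 to 155.5 over the 813 contigs, with a median of 20, against a median of 17.4 over all contigs. All 813 met the minimum mean of 10 counts, which every contig of the table meets. Library totals ran from 11646180 to 12156525 counts in standard-low and from 12528388 to 13533441 in low-low libraries, and the channel contigs took 0.161% to 0.187% of them. The libraries also differed in how much CpG-dense DNA they captured. Contigs with at least 4 CpGs per 100 bases took 4.61%, 5.16%, 5.16% and 5.10% of the counts of low-low libraries 1 to 4. In standard-low libraries 1 to 4 they took 4.54%, 4.08%, 5.24% and 4.24%. Standard-low library 3 was the highest of the 8 and standard-low libraries 2 and 4 were the lowest, so the groups overlapped (exact permutation test, two-sided, p = 0.229, with a smallest attainable p of 0.0286). These shares are given first because, over the standard-low libraries, the channel levels ran in the same order. Over the low-low libraries they did not.

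No channel gene and no channel contig passed the test between the groups. With edgeR's quasi-likelihood test and Benjamini-Hochberg adjustment over the whole table, 0 of 813 contigs had an adjusted p under 0.05, where 0.0268% of all contigs did, and the lowest adjusted p was 0.212. With the counts of each gene summed over its contigs, 0 of 35 genes passed, where 0.00524% of all genes did, and the lowest adjusted p was 0.807. DESeq2 and limma voom also passed 0 contigs and 0 genes. The unadjusted p was under 0.05 for 54 contigs, or 6.64%, where 5.68% of all contigs reached that level, and 35 of the 54 were lower and 19 higher in standard-low libraries, where 2.76% of all contigs were lower and 2.93% higher at that level. Among genes the same level was reached by 7 of 35, or 20%, of which 6 were lower and 1 higher, where 6.03% of all genes reached it, 4.32% lower and 1.71% higher. These gene shares are not like for like. The channel genes sum more contigs per gene, 813 in 35 genes against 125082 in 19098. Their contigs are also denser in CpG, at 2.68 against 2.46 per 100 bases. DESeq2 gave 25 channel contigs and 3 channel genes at that level, where its share was 2.28% of all contigs and 3.01% of all genes. The channel gene count was 11 without standard-low library 3, where the share of all genes also rose, to 14.7%. It was 3 without low-low library 4, and 4 without low-low library 2, low-low library 3, standard-low library 2 or standard-low library 4, where 3.97% to 4.95% of all genes reached that level. Without standard-low library 3, the channel contig count was 84, where 7.5% of all contigs reached it.

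The differences themselves were small. The median log2 difference, standard-low over low-low, was -0.04 over the 35 genes and -0.03 over all genes, and 24 of the 35 were below 0, where 58.6% of all genes were. The largest difference of a gene in either direction was 0.32 on the log2 scale, and the standard errors of the genes ran from 0.05 to 0.17. In 0 of 35 genes did the 4 values of the groups stay apart, where 3.48% of all genes did, 2.08% with standard-low lower and 1.4% with it higher. Of the 813 contigs, 466 were below 0, or 57.3%, where 49.7% of all contigs were. Among contigs, 27 of 813 had groups that did not overlap, or 3.32%, where 3.24% of all contigs did, with 18 lower and 9 higher in standard-low libraries, where 1.61% and 1.63% of all contigs were.

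Levels between genes can be compared per length of contig, as CPM per kb. On this scale the channel genes lay within a narrow range, from 2.48 in Scn9a to 4.61 in Cacna1h. Cacna1h encodes a T-type calcium channel, which opens at low voltage, and Scn9a a sodium channel of peripheral sensory and some hypothalamic neurons. Scn3a, a sodium channel prominent in the developing brain, followed Cacna1h at 4.34, and Scn8a stood at 4.21. Each step to the next of the 35 genes in the order of levels was smaller than the SD of the higher gene over the 8 libraries. The level per length went with CpG density, with Pearson's r = 0.76 and Spearman's rho = 0.75 over the 35 genes, which share the same 8 libraries. The plot of levels per length shows each library.

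**Figure D1:**
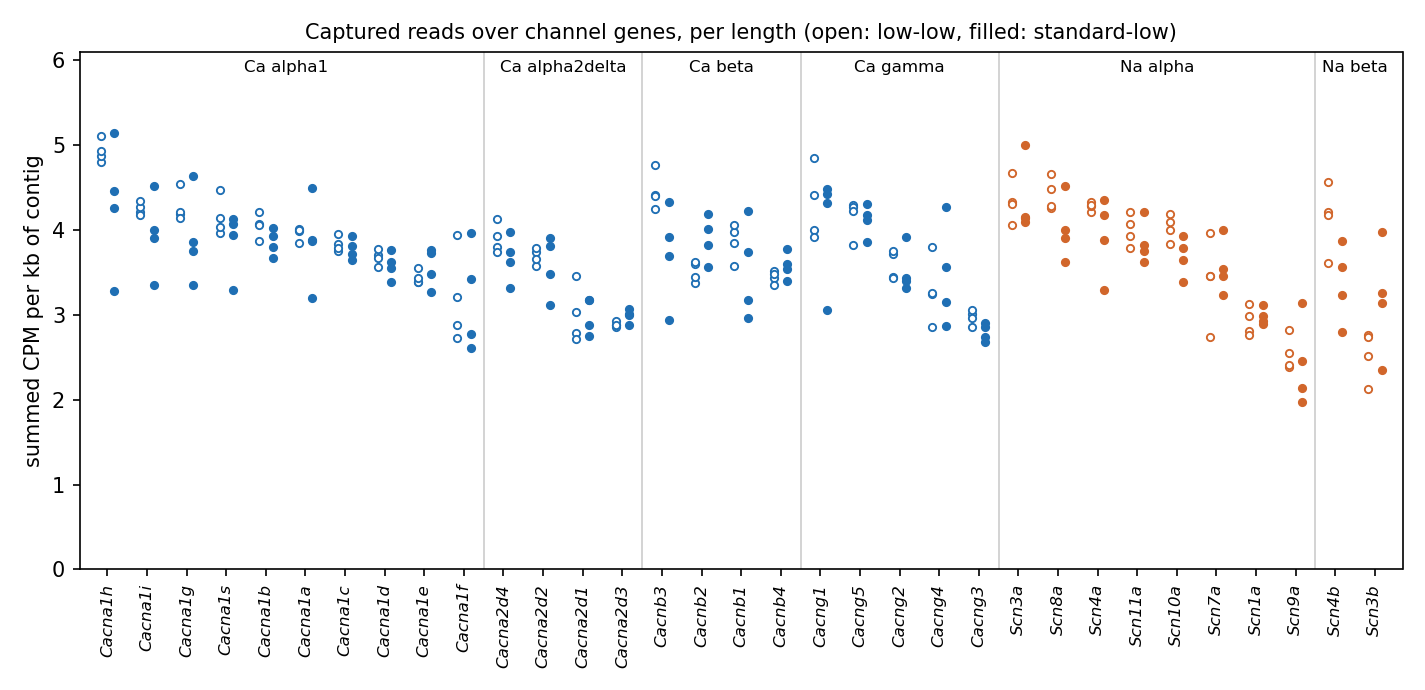
Summed CPM per kb of contig (y axis, linear from 0) for 33 of the 35 channel genes (x axis), in blocks by subunit class and ordered within a block by mean level; each point is 1 library, open for the 4 low-low and filled for the 4 standard-low libraries. The groups overlap in every gene shown, and the filled points are spread more widely than the open ones in most.

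The standard-low libraries were the more variable. The SD of the summed CPM was larger in standard-low than in low-low libraries in 31 of the 35 genes, where it was in 66.4% of all genes. The median coefficient of variation was 4.25% in low-low and 9.94% in standard-low libraries for the channel genes, against 9.91% and 13.9% for all genes. The channel genes sum more contigs per gene, 813 in 35 genes against 125082 in 19098, so counting adds less to their spread. How much of the contrast with all genes comes from this was not tested. Standard-low library 2 was the lowest of all 8 libraries in 19 of 35 genes, and standard-low library 3 the highest of all 8 in 13. Summed over all contigs inside genes, the same libraries were also the lowest and the highest. They held 259881 and 287595 CPM there, against a low-low mean of 280870 CPM. Relative to the low-low mean, the median channel gene stood at 0.978, 0.870, 1.02 and 0.946 in standard-low libraries 1 to 4. This is the same order as that of their share of CpG-dense counts, with library 3 highest and library 2 lowest. In low-low libraries 1 to 4 the median gene stood at 0.991, 0.984, 1.01 and 1.01, which did not follow the order of their shares. The heat map of genes by library shows the pattern gene by gene.

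**Figure D2:**
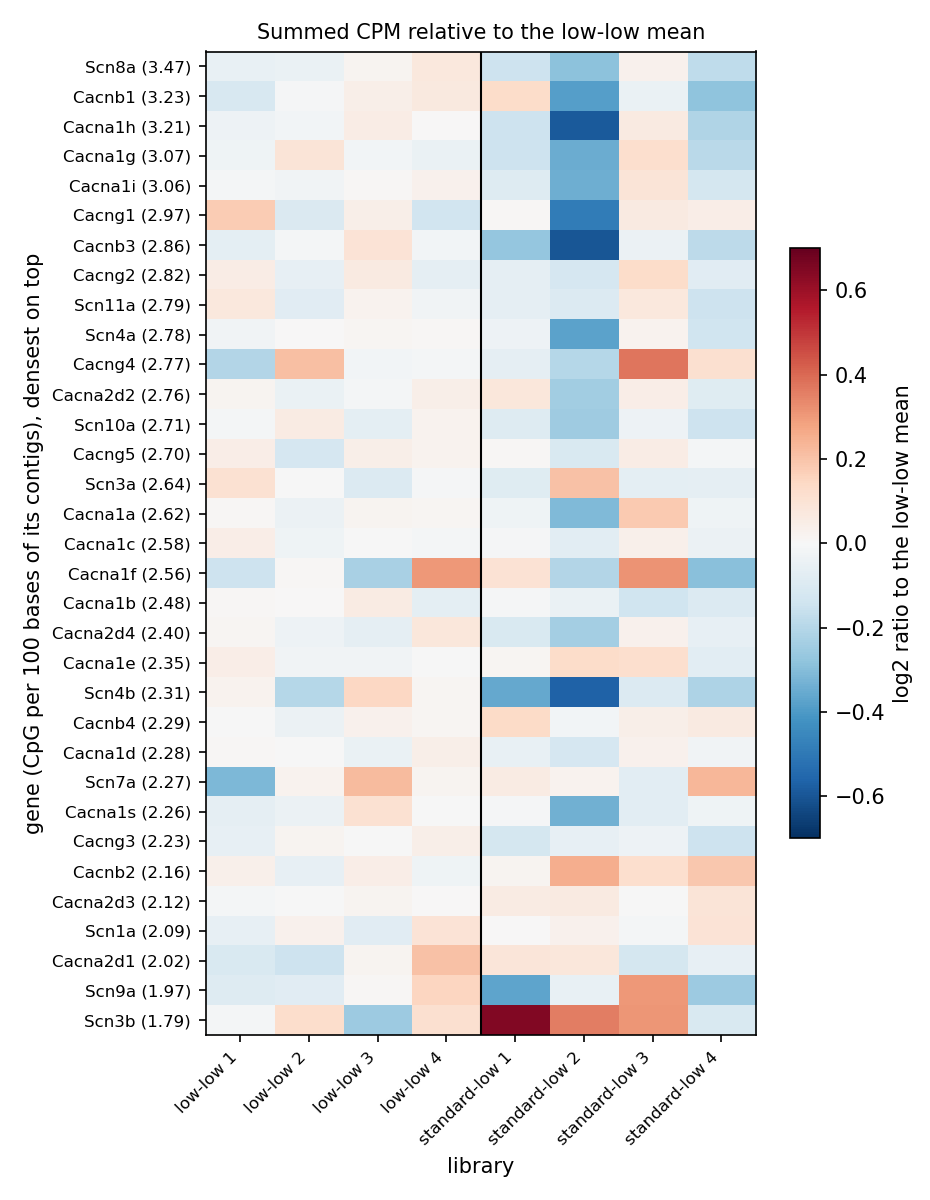
Log2 ratio of each library's summed CPM to the mean of the 4 low-low libraries (colour, from -0.7 blue to 0.7 red) for 33 of the 35 channel genes, with the CpG-densest gene on top and CpG per 100 bases in brackets; columns are the 8 libraries, split by a line between the groups. Standard-low library 2 is blue over most of the upper, CpG-dense rows, where standard-low library 3 is mostly red.

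The pore-forming calcium channel subunits were represented by 10 genes and 371 contigs, the largest class. Their summed level was 777 ± 5.74 (SD, n = 4) CPM in the low-low group, against 745 ± 63.5 (SD, n = 4) CPM in standard-low libraries. This is a ratio of 0.959, where all contigs inside genes gave 0.974. Of the 10 genes, 8 were below 0, where 58.6% of all genes were. The T-type gene Cacna1h was the 1 gene of this class at an unadjusted p under 0.05 by edgeR. Of all genes, 6.03% reached that level, 4.32% lower. Cacna1h was lower in standard-low libraries. Its 28 contigs summed to 70.5, 71.4, 74.9 and 72.4 CPM over low-low libraries 1 to 4 and to 65.5, 48.2, 75.4 and 62.5 CPM in standard-low libraries 1 to 4. Standard-low library 2 was far below the rest, library 3 was above all 4 low-low libraries, and the groups overlapped. The log2 difference was -0.20 ± 0.09 (SE; adjusted p = 0.807 by edgeR's quasi-likelihood test). The other T-type genes, Cacna1g and Cacna1i, had the same order of standard-low libraries. Cacna1g held 58.4, 63.2, 58.7 and 57.7 CPM over the low-low libraries, compared with 53.7, 46.7, 64.6 and 52.2 CPM in standard-low libraries, and its log2 difference was -0.13 ± 0.08 (SE). Cacna1i went from 86 ± 1.5 to 79.8 ± 9.63 CPM (SD, n = 4 each), a log2 difference of -0.11 ± 0.07 (SE).

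The high-voltage channels of neurons stood closer to 0. Cacna1a encodes the P/Q-type channel that triggers transmitter release at most central synapses, and it had the largest number of contigs, 75, and the highest summed level of the family, which came to 3.91 CPM per kb. It held 183, 176, 184 and 183 CPM for low-low, against 178, 147, 206 and 178 CPM in standard-low libraries. Here standard-low library 3 was the highest and library 2 the lowest of all 8, and the log2 difference was -0.04 ± 0.07 (SE). That sign turned to 0.04 without standard-low library 2 and to 0.01 with the offset for CpG density described below. Cacna1b, the N-type channel of presynaptic terminals, went from 35.7 ± 1.26 to 34.0 ± 1.36 CPM, and Cacna1e, the R-type channel, from 70.8 ± 1.62 to 73.2 ± 4.81 CPM (SD, n = 4 each). Cacna1c and Cacna1d encode the L-type channels of brain and heart that couple depolarization to gene expression and pacemaking. Cacna1c went from 86.5 ± 1.97 to 85.2 ± 2.70 CPM and Cacna1d from 144 ± 3.44 to 140 ± 6.1 CPM (SD, n = 4 each). Their log2 differences were -0.02 ± 0.05 and -0.04 ± 0.05 (SE), and the sign of Cacna1c turned with the offset for CpG density and with a minimum mean of 20 counts.

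Of the auxiliary calcium channel subunits, the extracellular alpha2delta proteins bring the pore subunit to the membrane, and some of them bind gabapentin-type drugs. Their 4 genes summed to 225 ± 5.27 CPM in the low-low group, against 223 ± 9.14 CPM in standard-low libraries (SD, n = 4 each), with a ratio of 0.989 that became 1.01 without standard-low library 2. Cacna2d3 held 80.7, 81.3, 82.6 and 81.6 CPM over the low-low libraries, compared with 84.9, 85.2, 81.3 and 86.9 CPM in standard-low libraries, with standard-low library 3 inside the low-low range and the others above it. Its log2 difference was 0.05 ± 0.05 (SE). Cacna2d2 went from 77.5 ± 1.98 to 75.1 ± 7.54 CPM and Cacna2d1 from 13.5 ± 1.5 to 13.5 ± 0.972 CPM (SD, n = 4 each).

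The beta subunits, which bind the pore protein inside the cell and set its gating, held genes that differed in opposite directions. Cacnb3 held 14.4, 14.9, 16.1 and 14.9 CPM for low-low, against 12.5, 9.95, 14.7 and 13.3 CPM in standard-low libraries. All but standard-low library 3 were below the low-low range, and the log2 difference was -0.26 ± 0.11 (SE; adjusted p = 0.807 by edgeR's quasi-likelihood test). Cacnb2 was the 1 channel gene that was higher in standard-low libraries at an unadjusted p under 0.05 by edgeR, where 1.71% of all genes were. It held 36.0, 33.7, 36.2 and 34.4 CPM in the low-low group, against 35.6, 41.8, 38.1 and 40.1 CPM in standard-low libraries, so that standard-low library 1 lay within the low-low range and the others above it. The log2 difference was 0.15 ± 0.07 (SE; adjusted p = 0.807 by edgeR's quasi-likelihood test), and 15 of its 19 contigs were above 0. Cacnb4, a beta subunit of brain, went from 41.4 ± 0.914 to 43.0 ± 1.88 CPM (SD, n = 4 each). Summed over the 4 genes, the class stood at 116 ± 2.99 CPM over the low-low libraries, compared with 117 ± 3.98 CPM in standard-low libraries (SD, n = 4 each). The ratio of 1.01 became 0.997 without standard-low library 1 and 0.999 without low-low library 2.

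The gamma subunits include the skeletal muscle subunit Cacng1 and proteins that are better known for carrying AMPA-type glutamate receptors to the synapse, among them Cacng2, or stargazin. Their 5 genes summed to 127 ± 2.51 CPM for low-low, against 123 ± 8.38 CPM in standard-low libraries (SD, n = 4 each). Of the 5, 0 had an unadjusted p under 0.05 by edgeR, limma voom or DESeq2, where 6.03%, 6.53% and 3.01% of all genes did. Cacng2 went from 40.7 ± 1.96 to 39.9 ± 3.12 CPM (SD, n = 4 each), a log2 difference of -0.03 ± 0.07 (SE).

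The pore-forming sodium channel subunits showed the lowest ratio of the 6 classes. Their 9 genes and 194 contigs summed to 532, 526, 535 and 548 CPM over low-low libraries 1 to 4 and to 490, 456, 543 and 487 CPM in standard-low libraries 1 to 4. Standard-low library 3 lay within the low-low range and the other 3 below it. The means were 535 ± 9.13 and 494 ± 36.3 CPM (SD, n = 4 each), a ratio of 0.923. Leaving out each library in turn gave ratios from 0.892 to 0.947, and scaling by the library total alone gave 0.931. The unadjusted p was under 0.05 for 21 contigs of 194, or 10.8%, with 15 lower and 6 higher, where 5.68% of all contigs reached that level. It was under 0.05 for 3 genes of 9, all lower, where 6.03% of all genes reached it and 4.32% were lower. With the offset for CpG density described below, 15 contigs and 0 genes of the class were at that level by edgeR, where 5.14% of all contigs and 4.49% of all genes reached it.

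Scn8a encodes the channel of axon initial segments and nodes of Ranvier that sets the threshold and rate of firing in central neurons. It held 154, 155, 162 and 168 CPM in the low-low group, against 145, 131, 163 and 141 CPM in standard-low libraries, with standard-low library 3 inside the low-low range and the others below it. The log2 difference was -0.14 ± 0.06 (SE; adjusted p = 0.807 by edgeR's quasi-likelihood test). Scn8a was also the CpG-densest of the 35 genes, at 3.47 CpGs per 100 bases. Scn10a, a sodium channel of pain-sensing neurons, held 61.7, 64.7, 59.3 and 63.2 CPM over the low-low libraries, compared with 58.5, 52.3, 60.7 and 56.4 CPM in standard-low libraries. Its log2 difference was -0.13 ± 0.06 (SE; adjusted p = 0.807 by edgeR's quasi-likelihood test), and standard-low library 3 was again the 1 library within the low-low range. Scn4a, the channel of skeletal muscle, went from 50.2 ± 0.589 to 46.1 ± 5.42 CPM (SD, n = 4 each), a log2 difference of -0.12 ± 0.07 (SE).

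The alpha genes that lie together on mouse chromosome 2 stood near 0. Scn1a, a channel of inhibitory neurons, went from 19.3 ± 1.09 to 19.7 ± 0.654 CPM, Scn3a from 34.7 ± 1.99 to 34.8 ± 3.51 CPM and Scn9a from 4.63 ± 0.367 to 4.42 ± 0.941 CPM (SD, n = 4 each). Their log2 differences were 0.03 ± 0.08, 0.00 ± 0.08 and -0.07 ± 0.16 (SE). In this cluster the CpG density was lower, from 1.97 CpGs per 100 bases in Scn9a to 2.64 in Scn3a. The signs of all 3 turned under at least 1 other setting.

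The sodium channel beta subunits, cell-adhesion proteins that modulate gating, had few contigs, 14 in 3 genes. Scn4b, which contributes to the resurgent current of fast-firing neurons, held 18.0, 15.5, 19.6 and 17.9 CPM for low-low, against 13.9, 12, 16.6 and 15.3 CPM in standard-low libraries. Standard-low library 3 was above low-low library 2, and all other standard-low libraries were below the low-low range. The log2 difference was -0.30 ± 0.11 (SE; adjusted p = 0.807 by edgeR's quasi-likelihood test). Scn3b, with 3 contigs, differed in the other direction, from 3.51, 3.86, 2.97 and 3.84 CPM in low-low to 5.56, 4.55, 4.39 and 3.30 CPM in standard-low libraries. That log2 difference, 0.32 ± 0.17 (SE), was the largest of the 35 and the least precise. The class summed to 34.1 ± 1.44 and 32.6 ± 4.52 CPM (SD, n = 4 each), a ratio of 0.957 that became 1.01 without standard-low library 2. The ratio over all contigs inside genes was 0.974.

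At the level of single contigs, the lowest p belonged to Scn8a contig 2059053, a contig with 4.88 CpGs per 100 bases. It held 4.58, 6.61, 4.42 and 5.45 CPM in the low-low group, against 2.82, 2.02, 4.06 and 3.63 CPM in standard-low libraries, so every standard-low library was below every low-low library. The log2 difference was -0.75 ± 0.19 (SE; adjusted p = 0.212 by edgeR's quasi-likelihood test). Without standard-low library 3 it was -0.90 with an adjusted p of 0.0387. The second Scn8a contig, 1380425, held 1.30, 1.56, 0.642 and 1.23 CPM over the low-low libraries, compared with 0.513, 0.506, 0.249 and 0.676 CPM in standard-low libraries. Its groups overlapped through low-low library 3, and the log2 difference was -1.28 ± 0.38 (SE). Of the 40 contigs of Scn8a, 6 were lower and 0 higher at an unadjusted p under 0.05 by edgeR, where 2.76% of all contigs were lower and 2.93% higher. Of the 6, 5 were among the 10 Scn8a contigs with at least 4 CpGs per 100 bases. At that density 9.92% of all contigs were lower and 1.31% higher at that level, and 12.4% and 0.456% of those inside genes.

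Scn4a contig 1532775 held 3.36, 2.67, 2.41 and 2.38 CPM for low-low, against 1.71, 0.843, 2.07 and 1.52 CPM in standard-low libraries, without overlap, a log2 difference of -0.81 ± 0.24 (SE). Cacna1h contig 1360805 also had groups apart, with 1.22, 1.86, 1.28 and 1.69 CPM in the low-low group, against 0.941, 0.675, 0.83 and 0.423 CPM in standard-low libraries, a log2 difference of -1.07 ± 0.32 (SE). In both contigs the standard-low libraries were all low, library 3 included. Scn4b contig 893668 went from 1.35 ± 0.0560 to 0.694 ± 0.271 CPM (SD, n = 4 each), without overlap. The groups of Cacna1i contig 869600, at 4.08 ± 0.593 and 2.59 ± 0.796 CPM (SD, n = 4 each), and of Cacna1s contig 4604793, at 3.16 ± 1.35 and 2.02 ± 0.704 CPM (SD, n = 4 each), overlapped. Cacna1s encodes the voltage sensor of skeletal muscle. The adjusted p of these 5 contigs ran from 0.596 to 0.795 by edgeR.

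Of the 12 contigs with the lowest p, 4 were higher in standard-low libraries, and they held from 2.01 to 2.79 CpGs per 100 bases. Cacnb4 contig 2904554 held 1.83, 0.891, 1.61 and 0.998 CPM for low-low, against 2.57, 2.36, 1.74 and 2.28 CPM in standard-low libraries, with library 3 inside the low-low range, a log2 difference of 0.75 ± 0.26 (SE). Cacna1e contig 4454662 held 0.611, 0.743, 0.642 and 0.384 CPM in the low-low group, against 1.11, 1.43, 1.08 and 1.10 CPM in standard-low libraries, without overlap, and matches mouse over only 29 bases. Cacna1c contig 2113386 was also apart, at 1.63 ± 0.267 and 2.57 ± 0.727 CPM (SD, n = 4 each). Cacng3 contig 2765881 overlapped, at 0.576 ± 0.286 and 1.18 ± 0.453 CPM (SD, n = 4 each).

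The most heavily captured contigs of the family differed little. The longest, Cacna1a contig 1780642, drew 12.7 ± 1.13 CPM over the low-low libraries, compared with 12.3 ± 1.44 CPM in standard-low libraries, and Cacng5 contig 576080 drew 11.2 ± 1.28 and 11.5 ± 0.513 CPM (SD, n = 4 each). Cacna1h contig 4037976, Cacna2d2 contig 289205 and Scn8a contig 1435857 were also among the highest, with log2 differences of -0.18, -0.05 and 0.08. The CpG-densest contig, Cacna1b 1270938 with 7.99 CpGs per 100 bases, drew 1.09 ± 0.467 and 1.01 ± 0.636 CPM (SD, n = 4 each). Its groups overlapped widely. The plot along 3 genes shows where the contigs lie.

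**Figure D3:**
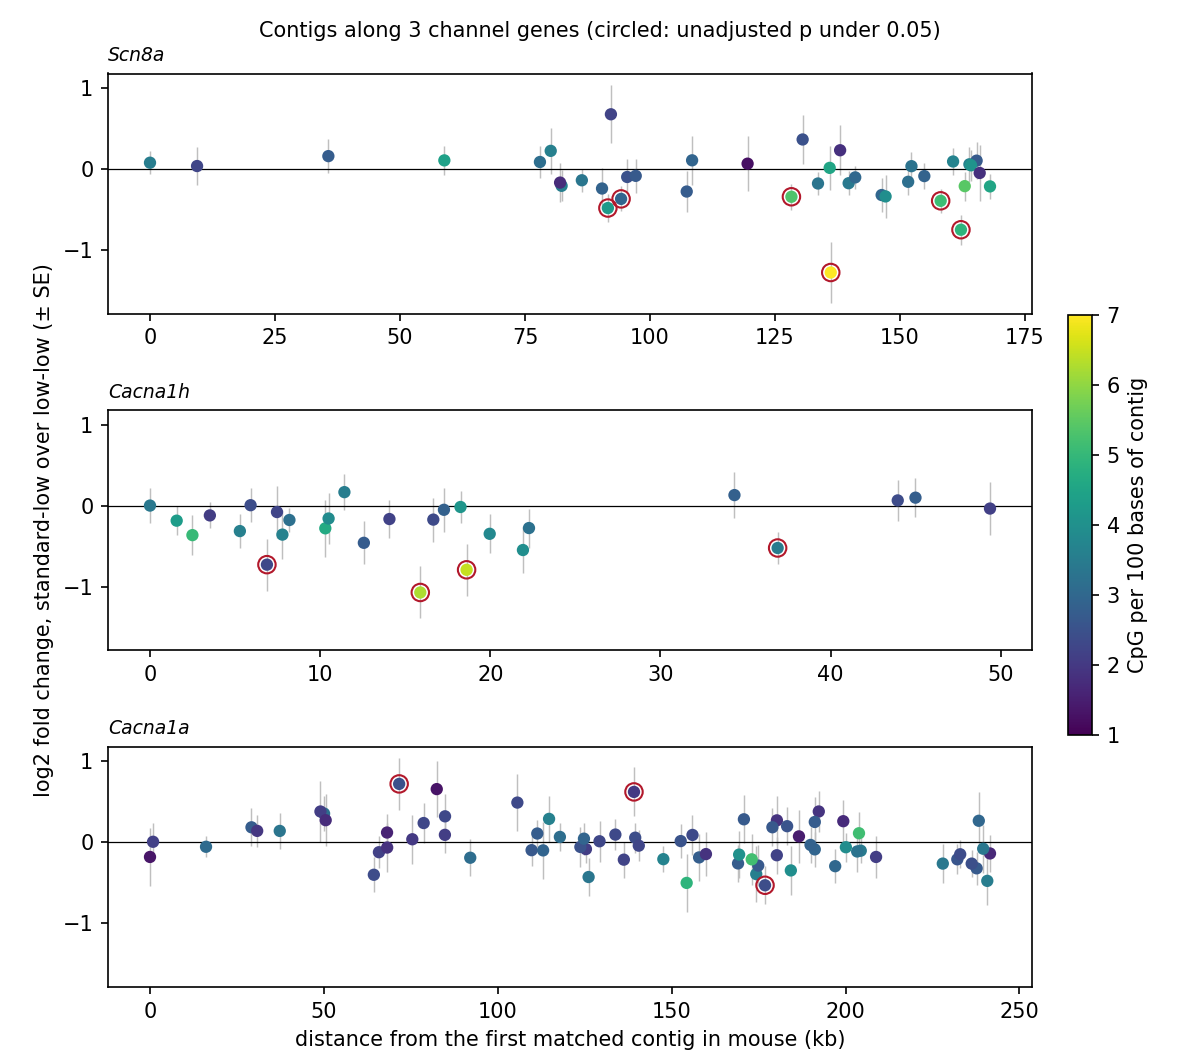
Log2 difference of each contig, standard-low over low-low (y axis, grey bars ± SE), against its distance in kb from the first matched contig of the gene in mouse (x axis) for Scn8a, Cacna1h and Cacna1a; colour gives CpG per 100 bases and a red circle an unadjusted p under 0.05. The circled points of Scn8a and Cacna1h are all below 0, and those of Cacna1a lie on both sides.

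Within the family, the difference between the groups went with CpG density. Over the 35 genes, CpG per 100 bases and the log2 difference correlated with Pearson's r = -0.47 and Spearman's rho = -0.49, and over the 813 contigs with r = -0.33 and rho = -0.29. These are descriptions across genes and contigs that share the same 8 libraries and their base composition. Of the 12 CpG-densest genes, 11 were below 0, with a median of -0.13, and of the 12 poorest, 6 were, with a median of 0.01. At least 4 CpGs per 100 bases were found in 75 of the channel contigs, or 9.23%, against 5.44% of contigs inside genes and 4.11% of all contigs. Of these 75, 65 were below 0, with a median log2 difference of -0.28, where equally dense contigs inside genes had a median of -0.19 and 78.5% of them were below 0. All 11 of the 75 with an unadjusted p under 0.05 by edgeR were lower. Calls among all equally dense contigs were mostly lower too, with 12.4% of those inside genes lower and 0.456% higher at that level, and 9.92% and 1.31% of those in the whole table. Among the remaining 738 contigs the median was -0.04, and 43 reached that level, 24 of them lower. Of all contigs with 0 to 1, 1 to 2, 2 to 3 and 3 to 4 CpGs per 100 bases, 10.5%, 5.45%, 4.97% and 6.92% reached it. Those lower were 1.43%, 1.27%, 2.64% and 5.70%.

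**Figure D4:**
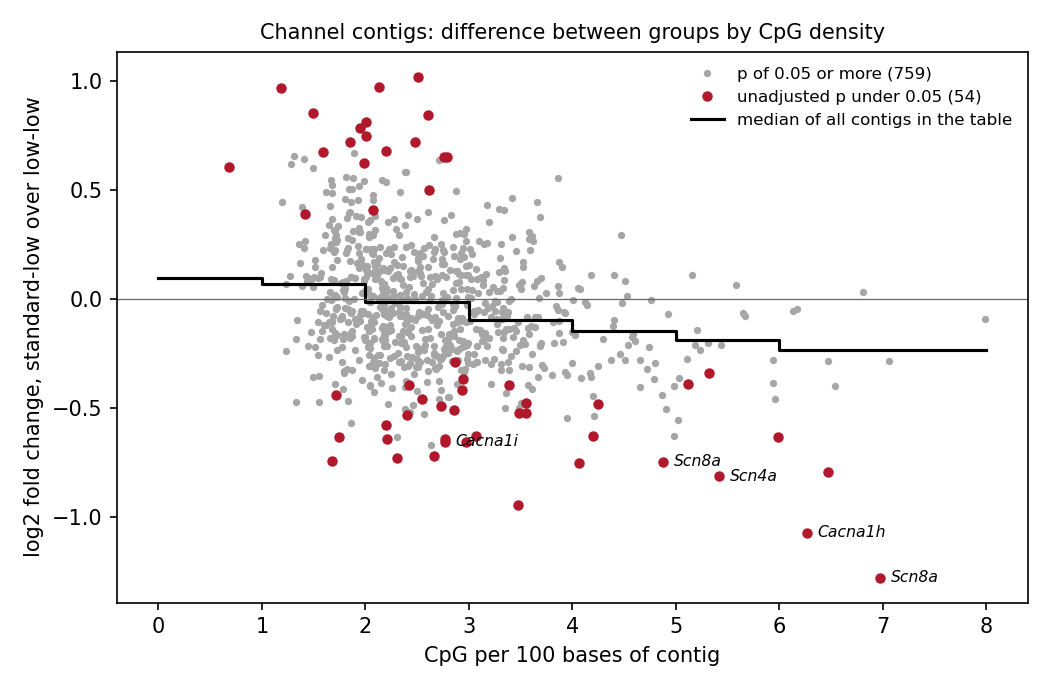
Log2 difference, standard-low over low-low (y axis), against CpG per 100 bases (x axis) for the 813 channel contigs, with the 54 at an unadjusted p under 0.05 in red, some of the lowest p named, and the median of all contigs of the table in steps of CpG density as a black line. The black line falls from above 0 on the left to below 0 on the right, and the channel contigs on the right lie mostly under 0.

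A slope in the same direction was present in the whole table. The median log2 difference of all contigs was 0.07 between 1 and 2 CpGs per 100 bases and -0.23 between 6 and 8. The channel contigs stood at 0.08 and -0.28 in the same ranges, the latter on 10 contigs. In the ranges 2 to 3, 3 to 4, 4 to 5 and 5 to 6 the channel contigs stood at -0.05, -0.08, -0.24 and -0.28. All contigs stood there at -0.01, -0.09, -0.15 and -0.19. An offset that removes each library's dependence on CpG density over all contigs, added after the data had been seen, left 48 channel contigs at an unadjusted p under 0.05, 25 of them lower, where 5.14% of all contigs reached it. It left 2 genes where there had been 7, against 4.49% of all genes. They were Scn4b, at -0.28, and Cacnb2, at 0.14, both with an adjusted p of 0.986 by edgeR's quasi-likelihood test. Past the adjusted threshold there were 0 channel contigs and 0 channel genes, where 0.0297% of all contigs and 0.0105% of all genes passed. Scn8a moved from -0.14 to -0.04, Cacna1h from -0.20 to -0.12, Cacnb3 from -0.26 to -0.19 and Scn10a from -0.13 to -0.08. With the offset, Scn8a contig 2059053 stood at -0.59 (adjusted p = 0.666 by the same test). With the offset and without standard-low library 3, 0 contigs and 0 genes passed the adjusted threshold by edgeR, and 52 channel contigs and 5 channel genes had an unadjusted p under 0.05, where 6.09% of all contigs and 8.33% of all genes did. What made the libraries differ in CpG-dense capture was not tested.

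**Figure D5:**
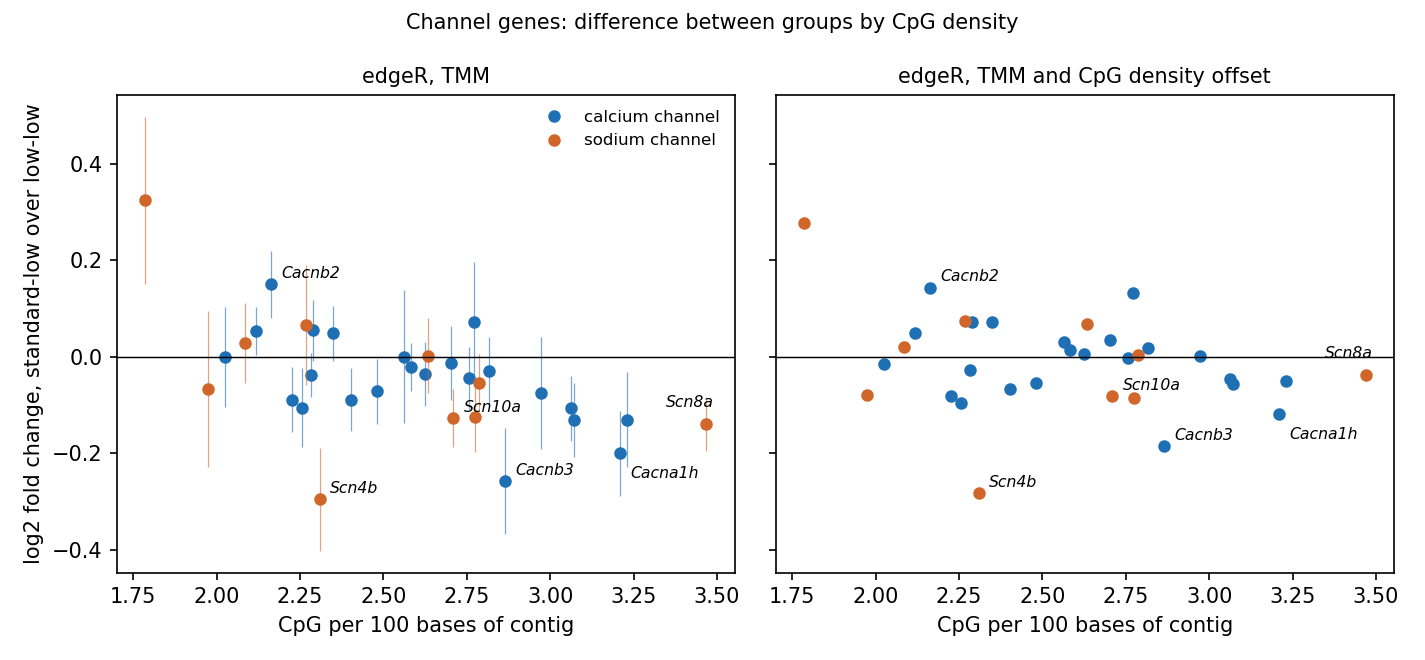
Log2 difference of 33 of the 35 channel genes, standard-low over low-low (y axis), against CpG per 100 bases of their contigs (x axis), without (left, bars ± SE) and with (right) the offset for CpG density; blue points are calcium and orange points sodium channel genes, and 6 genes with an unadjusted p under 0.05 are named. The points on the left fall from upper left to lower right, and on the right Scn8a lies near 0 while Scn4b and Cacnb2 keep their place.

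Genes that work with these channels were taken from a list of partners, calcium release channels and related cation channels, such as the leak channel Nalcn, the HCN pacemaker channels, the ankyrins, the ryanodine receptors and CaM kinase. All 45 had contigs, and 1 reached an unadjusted p under 0.05 by edgeR in the summed test, Camk2d, higher at 27.0 ± 1.83 against 23.8 ± 1.35 CPM (SD, n = 4 each). It no longer reached that level with the offset for CpG density. With the offset, 2 other genes of the list did, Unc79 and Rims2, both higher, where 4.49% of all genes did. Of the 858 contigs of the list, 50 reached an unadjusted p under 0.05 by edgeR without the offset, or 5.83%. They were 25 in each direction, where 5.68% of all contigs reached that level. Among 40 voltage-gated potassium channel genes, 3 reached it, all lower, and among 43 glutamate and GABA-A receptor genes 3 did, 2 lower and 1 higher. These are shares of 2.22%, 7.5% and 6.98% of the 3 gene lists, where 6.03% of all genes reached that level. None of these genes passed the adjusted threshold by edgeR. The channel family was not tested against these lists. Of the marker lists for neurons, oligodendrocytes, astrocytes, microglia, endothelium, and muscle or blood, 0 contigs passed by edgeR, and the unadjusted p was under 0.05 for 6 of 142, 7 of 37, 4 of 43, 2 of 54, 8 of 134 and 13 of 162 contigs. These are shares of 4.23%, 18.9%, 9.30%, 3.70%, 5.97% and 8.02%, where 5.68% of all contigs reached that level, so that the oligodendrocyte list stood farthest from it, on 37 contigs. Captured reads over the oligodendrocyte markers, whose contigs are dense in CpG at 3.24 per 100 bases, ranged from 89.1 to 92.6 CPM over the low-low libraries and from 72.5 to 95.8 CPM over the standard-low ones. Their part in the channel results was not tested.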

How the data were processed

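Per the labels' protocols, hypothalamic DNA was extracted, enriched with MethylMiner and made into sequencing libraries, and the submitters' processing notes name FastQC and BWA without versions. The deposited table gives the authors' raw read counts per assembled contig in 8 libraries, with each contig's sequence and its nearest mouse gene in the row name. The aligner settings, the assembly and the mouse build were not given in the sources used here. All 548060 contigs have a mean of at least 10 counts per library, so that minimum removed none. edgeR 4.0.16 (R 4.3.3; TMM scaling, quasi-likelihood test, two-sided, Benjamini-Hochberg adjustment, threshold 0.05) was fitted over all contigs and over 19098 genes summed over the contigs inside them, and was tested on simulated data. CPM scales a count to the library total times its TMM factor, and the SE is the log2 difference divided by the square root of F. DESeq2 1.42.0, limma voom 3.58.1 and other filters, scalings and subsets were alternatives. The CpG density offset used 50 bins of contigs and was added after the data had been seen. The members and lists were chosen with earlier results of these data known. The text names the 10 genes and 12 contigs with the lowest p, the 6 of each with the highest CPM, 20 genes fixed by name, and any without a contig, and the rule allowed 13 sequences, of which 4 are shown. Some results that these rules take are not reported here. Sand rat RefSeq lists 34 of the 35 symbols. Intervals and errors cover counting and the spread between libraries. Each library's depth limits a contig's SE to a median of 0.27 on the log2 scale.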

Additional observations from a re-analysis of the deposited data

Results flagged for a closer look

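Of 100 sets of 4 libraries checked among 33 channel genes and the named contigs, 5 held a library that stood far from the other 3 of its group, where chance alone gives about 1 in 20. Standard-low library 2 held 10.8 CPM over Cacng1, where the other standard-low libraries held 15.2 to 15.8. The same library held 40.1 CPM over Scn3a, against 32.8 to 33.2, and 1.43 CPM over Cacna1e contig 4454662, against 1.08 to 1.11. Low-low library 2 held 23.5 CPM over Cacng5, against 26.0 to 26.4, and 1.26 CPM over Scn4b contig 893668, against 1.36 to 1.38.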

How the results depend on the processing

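No channel contig and no channel gene passed the adjusted threshold under any other scaling, filter, tool or subset tried, except 1 contig, Scn8a 2059053, and 1 gene, both without standard-low library 3, where 0.0378% of all contigs and 0.157% of all genes passed. Leaving out each library in turn thus gave 0 to 1 contigs and 0 to 1 genes past it. The unadjusted p was under 0.05 for 54 contigs and 7 genes, against 25 contigs and 3 genes with DESeq2, 23 contigs and 4 genes with a minimum mean of 20 counts, 2 genes with the offset for CpG density, and 38 to 84 contigs and 3 to 11 genes without each library, where 4.92% to 7.5% of all contigs and 3.97% to 14.7% of all genes reached it. With DESeq2, 2.28% of all contigs and 3.01% of all genes reached that level, and with the offset 4.49% of all genes did. The minimum of 20 tests 409 of the channel contigs, and under it 5.56% of all contigs and 5.6% of all genes reached that level. The cause of the other shifts was not tested. The deviations of same-numbered libraries from their group mean correlated at -0.01 to 0.09, and those of other pairs at -0.11 to 0.06. With 4 libraries per group these deviations are tied to each other, so the correlations cannot settle whether replicate numbers pair the libraries. A replicate block gave 57 contigs and 5 genes at that level, where 5.74% of all contigs and 7.05% of all genes reached it. It gave 0 past the threshold by edgeR, where 0.0376% of all contigs and 0.0157% of all genes passed. Of all contigs 147 passed, against 32 with DESeq2, 50 with limma voom, 81 with the minimum of 20, 68 without low-low library 2 and 97 without standard-low library 4. The minimum of 20 tested 221973 contigs, and the 81 are 0.0365% of them, where the 147 are 0.0268% of 548060. Depth limits single contigs most, with a median SE of 0.27 on the log2 scale against 0.07 for the summed genes.

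Among the genes and contigs described, signs turned in 14 genes and 3 contigs, none with an adjusted p under 0.723 by edgeR, DESeq2 or limma voom, and all values here are log2 differences. With the CpG density offset, Cacna1a contig 1780642 stood at 0.022, Cacna1b contig 1270938 at 0.068, Scn11a at 0.0028, Cacng1 at 0.0015, Cacna1a at 0.0053, Cacng2 at 0.018, Cacna1c at 0.014 and Cacng5 at 0.035. With that offset and without standard-low library 3, Cacna1b contig 1270938 stood at 0.20, Cacna1c at 0.0093, Cacng5 at 0.032, Cacna2d1 at 0.017 and Cacna1f at -0.080. With the minimum of 20 counts, Scn7a stood at -0.15, Cacna1c at 0.016, Scn1a at -0.049, Cacng5 at 0.031, Scn3a at -0.0049 and Cacna1f at -0.066. With limma voom, Scn3a stood at -0.0016, Cacna2d1 at 0.0033 and Cacna1f at -0.0057. Cacna2d1 stood at 0.0019 with DESeq2, 0.0020 with RLE scaling and 0.0014 with the replicate block, under which Cacna1f stood at -0.0028. Over contigs with at least 100 aligned bases, Scn3a stood at -7.7e-05 and Cacna1f at -0.075, and over contigs within 2 kb Cacna1f stood at -0.015. Without each library in turn, the ranges were -0.12 to 0.018 for Cacna1a contig 1780642, -0.029 to 0.10 for Cacng5 contig 576080 and -0.41 to 0.26 for Cacna1b contig 1270938. For genes they were -0.089 to 0.017 for Cacna2d2, -0.13 to 0.039 for Cacng1, -0.046 to 0.15 for Cacng4, -0.12 to 0.044 for Cacna1a, -0.026 to 0.15 for Scn7a, -0.22 to 0.020 for Scn9a, -0.051 to 0.017 for Cacng5, -0.073 to 0.039 for Scn3a, -0.047 to 0.074 for Cacna2d1 and -0.12 to 0.12 for Cacna1f.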
